A study of Drosophila melanogaster with 2 samples.

Results

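The genomic intervals listed in the piRNA tables of Drosophila melanogaster ovaries are described here. They are the features whose name is a stretch of the genome, a chromosome piece with a start and an end, in place of a transposon name. Taken by name from both tables, they were 780 of 1364 piRNA features, with 563 listed in pelo1/+ and 537 in peloPB60/1. Intervals were 57.2% of the features but held 0.467% of the piRNA reads in pelo1/+ and 0.491% in peloPB60/1.

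Ovaries were dissected by hand from females aged 3 to 5 days, and RNA of 18 to 30 nt was sequenced. The pelo1/+ females carried the allele pelo1 over a normal chromosome, and the peloPB60/1 females carried the alleles PB60 and 1, so both groups share the allele pelo1. Pelota, the product of pelo, frees ribosomes that have stalled on an mRNA. Each genotype was represented by 1 library, so all ratios compare 2 libraries with no replicate check and no test of genotype, and the number of females behind a library is not given in the sources used here. The pelo transcript is not measured in these tables.

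piRNAs are small RNAs of the gonads that are loaded onto Piwi proteins and guide them to transposon transcripts, in germ cells and, for some transposons, in the somatic follicle cells around them. Many are cut from long transcripts of piRNA clusters, which are stretches filled with old transposon fragments, often in the heterochromatin near centromeres. Such repeat-rich DNA is difficult to assemble. The fly assembly with these sequence names, BDGP5, therefore keeps it partly as pieces outside the chromosome arms. Names ending in Het are heterochromatin placed on a chromosome but outside its arm, U is sequence joined from pieces of unknown place, and Uextra is a looser collection of further small pieces. The deposited tables do not say which repeat an interval holds.

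The piRNA tables held 5229331 reads in pelo1/+ and 4872519 in peloPB60/1. Levels are given as CPM, which is the count of a feature for every 1000000 reads that its table holds, and 1 read was about the same share in both libraries. Pooled and single ratios are peloPB60/1 over pelo1/+ with an exact 95% interval, which covers counting error only and holds no variation between libraries. Reads carry no molecular identifiers here, so repeated reads of the same molecule could not be set apart. The hairpins of the miRNA tables were checked against the ovary label. The 3 listed follicle cell miRNAs held 26.9% of the miRNA reads in pelo1/+ and 45.9% in peloPB60/1, and the 5 listed germline miRNAs 5.51% and 4.15%. The 2 listed muscle miRNAs held 0.2225% and 0.691%, the 2 neuronal ones 0.00159% and 0.00255%, and the 6 testis ones 0.0306% and 0.0361%. In whole ovaries, fewer cells of a type and less small RNA per cell cannot be told apart, and the part of the unequal follicle cell and muscle shares in the ratios below was not tested.

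The unplaced sequence carried most of the intervals and most of their reads. Of the 780 intervals, 420 lay on Uextra, 174 on U, 55 on pieces ending in Het and 131 on the assembled arms. U, with 22.3% of the intervals, held 50.4% of the interval reads in pelo1/+ and 47.3% in peloPB60/1. Uextra, with 53.8% of the intervals, held 30.9% and 36.4%. The assembled arms held 9.65% and 7.79%, and the Het pieces 9.02% and 8.50%. U thus held a larger share of the reads than of the intervals, and Uextra and the assembled arms a smaller one, in both libraries.

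**Figure D1:**
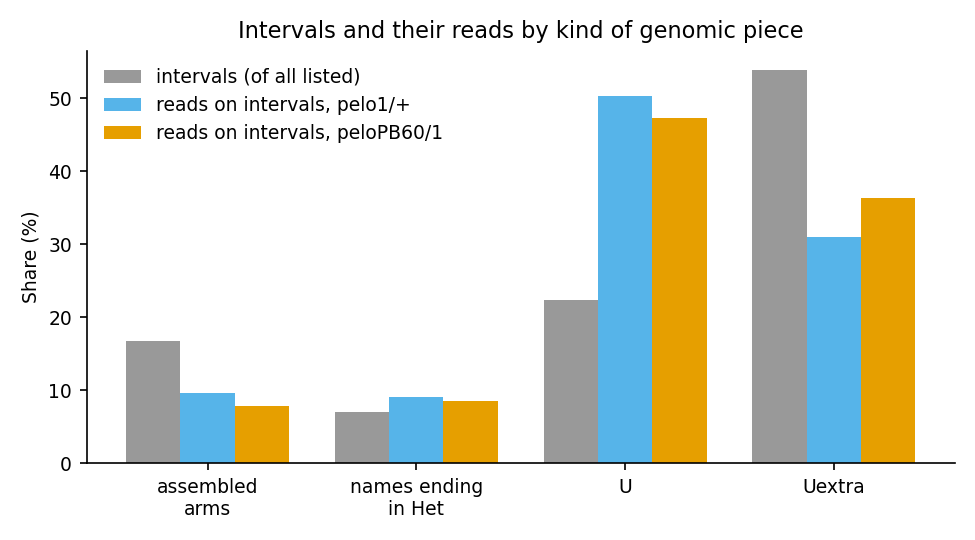
Share of the 780 intervals (grey) and of the reads on intervals in pelo1/+ (blue) and peloPB60/1 (orange), in percent, for the 4 kinds of genomic piece. U has 22.3% of the intervals and the largest share of the reads in both libraries, 50.4% and 47.3%.

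Per length, the reads were densest on Het pieces and U. Summed over both libraries there were 14.9 reads per 100 bases on the Het intervals and 14.7 on those of U, against 6.49 on the assembled arms and 6.10 on Uextra. The Het value rested on 3RHet, which had 53.6 reads per 100 bases, while 2RHet had 4.50 and 3LHet 4.26. A single interval of 3389 bases accounted for nearly all reads of 3RHet, as described below. The other kinds leaned on their leading interval too. Without it U had 9.925 reads per 100 bases, the Het pieces 4.43, Uextra 3.57 and the assembled arms 3.18. YHet, from the Y chromosome that these females do not carry, had 2 intervals with 3 reads in each library.

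The reads were concentrated in few intervals. The most abundant held 17.9% of the interval reads in pelo1/+ and 14.2% in peloPB60/1, and the 10 most abundant held 69.6% and 72.01%. Summed over both libraries, 5 intervals made up 50% of the reads and 36 made up 90%. At the other end 339 intervals, 43.5% of all, had 1 read in the 2 libraries together, and the median interval had 2. Length did not order this. Across the 780 intervals, summed reads and length had a Spearman correlation of -0.04, given as a description, since the intervals share both libraries and some share sequence.

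**Figure D2:**
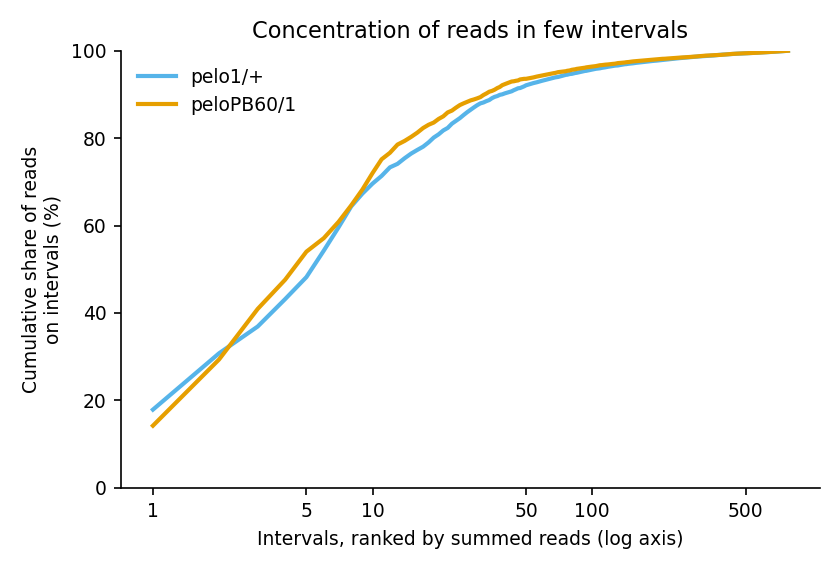
Cumulative share of the reads on intervals in each library, in percent, against the intervals ranked by reads summed over both libraries (log axis). The first 10 intervals reach 69.6% in pelo1/+ (blue) and 72.01% in peloPB60/1 (orange).

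The interval with the most reads was chrU:5521691-5522577, of 887 bases, with 4372 reads in pelo1/+ and 3400 in peloPB60/1. This was 836.1 CPM and 697.8 CPM, a ratio of 0.835 (95% interval 0.798 to 0.873). The next, chrUextra:17522021-17522342, was the leading interval of peloPB60/1, with 3148 and 3621 reads and a ratio of 1.23 (1.18 to 1.29). The library order of the first 2 intervals was therefore reversed between genotypes, by differences under 1.5-fold. Next was chrUextra:1194140-1194271, which at 132 bases was the shortest of the intervals with at least 50 summed reads. It had 1499 and 2768 reads, a ratio of 1.98 (1.86 to 2.11), and was densest per length among the intervals named, at 3233 reads per 100 bases. Its log2 ratio of 0.99 lay just under 2-fold and was 1.16 or 1.12 with scaling by TMM or median-of-ratios factors, which are estimated from the bulk of the features.

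The remaining 7 of the 10 most abundant intervals differed less than 2-fold as well. chr3RHet:1712604-1715992, the leading Het interval, had 1532 reads in pelo1/+ and 1597 in peloPB60/1, with a ratio of 1.12 (1.04 to 1.20). chr4:1311615-1312553, on the small chromosome 4, which is rich in heterochromatin, had 1296 and 887 reads and a ratio of 0.734 (0.674 to 0.801). These 2 intervals weigh most in the pooled values of their kinds of sequence, given below. On U, chrU:8496420-8497020 was lowest among the 10, with 1481 and 739 reads and a ratio of 0.535 (0.490 to 0.585). Its log2 ratio of -0.90 was -1.14, and past 2-fold, when reads were scaled to the miRNA total. chrU:8388407-8389077, with 1175 and 907 reads, was also lower, at 0.828 (0.759 to 0.904). On the other side were 3 intervals of U. They were chrU:9308750-9309325 with 1231 and 1536 reads (ratio 1.34), chrU:4180784-4181310 with 719 and 870 reads (1.30) and chrU:2547449-2547675 with 555 and 895 reads (1.73). Among the 10, the counting interval excluded a ratio of 1 in every case, with 6 ratios above 1 and 4 below.

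All intervals pooled had 24436 reads in pelo1/+ and 23915 in peloPB60/1, 4673 CPM and 4908 CPM. The pooled ratio was 1.05 (1.03 to 1.07). The few abundant intervals set it. Without the 3 most abundant it was 0.983 (0.961 to 1.01), and without the 10 most abundant 0.967 (0.936 to 0.9999). It was 0.891 when reads were scaled to the miRNA total. The 728 intervals under 50 summed reads had 1865 and 1500 reads, a ratio of 0.863 (0.806 to 0.924), against 1.07 (1.05 to 1.09) for the 52 intervals above. Within those 52, the 24 with 50 to under 200 reads stood at 0.913 (0.845 to 0.986). The 17 with 200 to under 1000 stood at 0.934 (0.891 to 0.979), and the 11 with 1000 or more at 1.11 (1.08 to 1.13).

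By kind of sequence, pooled ratios ran from 0.848 on the assembled arms to 1.24 on Uextra. The assembled arms had 2358 reads in pelo1/+ and 1864 in peloPB60/1, 0.848 (0.798 to 0.902). The Het pieces had 2204 and 2033 reads, 0.990 (0.932 to 1.05), and U had 12311 and 11307, 0.986 (0.961 to 1.01). Uextra had 7563 and 8711 reads, 1.24 (1.20 to 1.27). On the Het pieces and U the counting interval held a ratio of 1, on the arms it lay below and on Uextra above.

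Each of these pooled values leaned on 1 or 2 intervals. Without its leading interval, that on chromosome 4, the ratio of the assembled arms was 0.987 (0.904 to 1.08). The Het pieces without the interval of 3RHet had 672 and 436 reads, a ratio of 0.696 (0.616 to 0.787), and U without its leading interval stood at 1.07 (1.04 to 1.10). Uextra without its 2 leading intervals turned from above 1 to 0.855 (0.809 to 0.903), with 2916 and 2322 reads on the other 418 intervals. With 2 intervals left out, the 4 kinds of sequence stood at 0.883, 0.640, 1.02 and 0.855, and the counting interval of U, 0.985 to 1.055, held a ratio of 1. With its own 10 most abundant left out, U was below 1 too, at 0.906 (0.841 to 0.975). The arms, Het pieces and Uextra then stood at 0.802, 0.754 and 0.924.

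**Figure D3:**
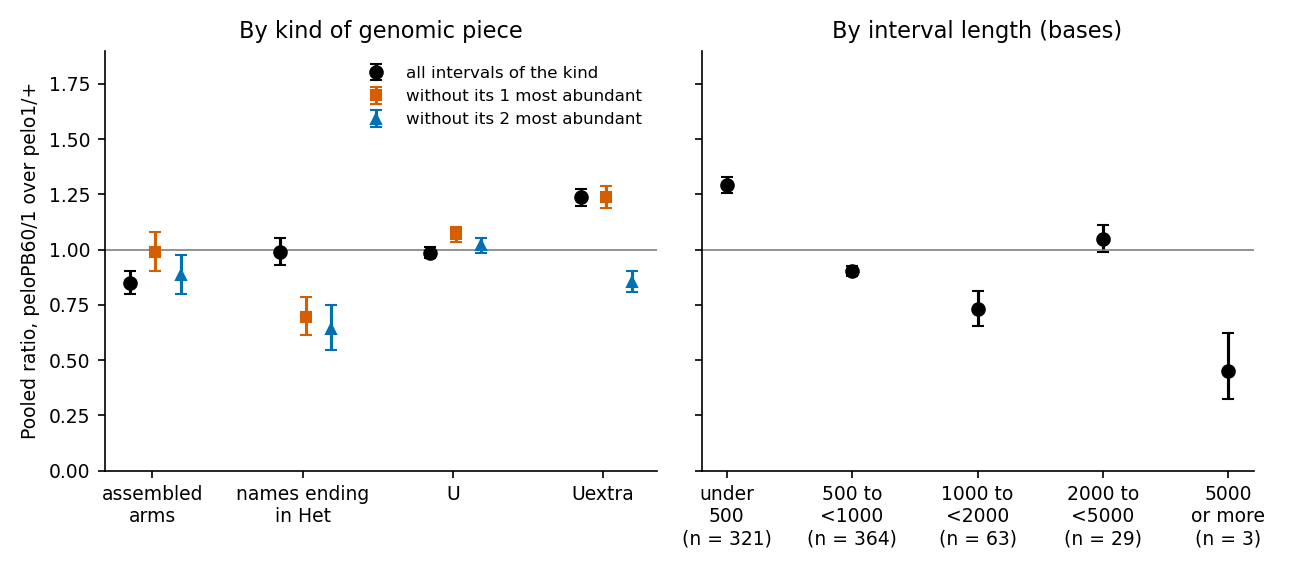
Pooled ratios of peloPB60/1 over pelo1/+ with 95% counting intervals, by kind of genomic piece (left) and by interval length in bases (right); the grey line marks equal shares of the table. On the left, squares and triangles leave out the 1 or 2 most abundant intervals of each kind, and Uextra moves from 1.24 to 0.855 without 2.

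Within the Het pieces and the arms, single sequences differed. 3LHet, with 20 intervals, had 259 reads in pelo1/+ and 126 in peloPB60/1 (ratio 0.522, 0.419 to 0.648). 2RHet, with 13 intervals, had 320 and 230 reads, 0.771 (0.648 to 0.917), and 3RHet, with 18, had 1588 and 1635, 1.10 (1.03 to 1.18). 2LHet had 2 intervals with 34 and 39 reads, and its counting interval of 0.757 to 2.01 held a ratio of 1. Of the large arms, X was above 1 with 279 and 354 reads (1.36, 1.16 to 1.60) and 3L below with 314 and 226 (0.773, 0.648 to 0.919). For 2L, 2R and 3R the counting intervals held a ratio of 1, with 238 and 202, 207 and 182, and 21 and 13 reads. Chromosome 4 had 1299 and 887 reads on 2 intervals.

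Pooled over the 5 large arms, the reads lay mostly toward the centromere, within limits set after the data were seen. The numbering of X, 2L and 3L runs toward the centromere and that of 2R and 3R away from it. The 27 intervals beyond 20 Mb of X, 2L and 3L or within the first 3 Mb of 2R and 3R held 67.4% of the reads of these 5 arms, and the other 102 intervals held 32.6%. A large part of the 67.4% came from chrX:21621091-21621227, with 433 summed reads, and chr2L:21544062-21544260, with 322. The share without them was not computed. By arm, X, 2L and 2R went this way, while 3L and 3R did not. Of the same reads, 3L held 9.97% within these limits and 16.6% outside, and 3R 0.344% and 1.33%. The proximal intervals had 691 reads in pelo1/+ and 681 in peloPB60/1, with a ratio of 1.06 (0.950 to 1.18), and the others had 368 and 296, 0.863 (0.738 to 1.01). Both counting intervals held a ratio of 1. Within the proximal stretches X was at 1.46 (1.22 to 1.75) and 3L at 0.541 (0.398 to 0.729). The X value came mainly from chrX:21621091-21621227, with 181 and 252 reads (1.49, 1.23 to 1.82). On 2L, chr2L:21544062-21544260 had 160 and 162 reads, a ratio of 1.09 (0.868 to 1.36).

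Interval length ranged from 38 to 7658 bases, with a median of 646. It differed by kind of sequence, with medians of 149 bases on the arms, 199 on Het pieces, 610.5 on U and 703 on Uextra. The 321 intervals under 500 bases held 36.5% of the interval reads in pelo1/+ and 45.0% in peloPB60/1, and the 364 of 500 to under 1000 bases held 50.3% and 43.2%. Per length the short ones were denser, at 30.6 reads per 100 bases against 8.30 for 500 to under 1000 bases, 1.75 for 1000 to under 2000 and 5.41 for 2000 to under 5000. Under 500 bases, many of the reads came from chrUextra:17522021-17522342, with 6769 summed reads, and chrUextra:1194140-1194271, with 4267. The next class leaned on chrU:5521691-5522577, with 7772. Densities by length without these intervals were not computed. Thus the shortest class held more than its share of the sequence, and the order was not strict above it.

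The pooled ratio was highest for the shortest intervals. Under 500 bases there were 8916 reads in pelo1/+ and 10753 in peloPB60/1, with a ratio of 1.29 (1.26 to 1.33). At 500 to under 1000 bases there were 12286 and 10334, a ratio of 0.903 (0.879 to 0.927). At 1000 to under 2000 bases there were 862 and 586 reads on 63 intervals, a ratio of 0.730 (0.656 to 0.811). The 29 intervals of 2000 to under 5000 bases stood at 1.05 (0.988 to 1.11), mostly from the interval of 3RHet, and the 3 longest at 0.453 (0.327 to 0.622), mostly from chrU:2161707-2168429. Abundant intervals set this order too. With the 10 most abundant left out, the 2 shortest classes stood at 1.002 and 1.06 and the class of 2000 to under 5000 bases at 0.895. With TMM scaling the class of 500 to under 1000 bases was at 1.02. Across the 52 intervals with at least 50 summed reads, length and log2 ratio had a Spearman correlation of -0.19, given as a description.

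For single intervals, those with at least 50 reads summed over both libraries were compared. There were 52, which is 6.67% of the intervals and 93.0% of their reads. The largest sum left out was 48 reads and the smallest kept 51. An interval was called higher or lower where the libraries differed at least 2-fold and the counting interval excluded no difference. Log2 ratios were computed with 0.5 counts added to each count, and ratios without. Of the 52, 5 were called higher in peloPB60/1, 9 lower and 38 neither.

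Over all 438 piRNA features with as many reads, 18.7% were called, 2.97% higher and 15.8% lower. Among the intervals 26.9% were called, 9.62% higher and 17.3% lower. The share called lower was near that of all features. The share called higher was above it, on a count of 5 intervals, which are among the 13 features called higher in all. No test of this difference is possible with 1 library per genotype. How calls were split depended on scaling, with 7 higher and 5 lower under TMM factors, 7 and 7 under median-of-ratios factors, 4 and 15 under the miRNA total, and 11 and 3 under upper-quartile factors.

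The median log2 ratio of the 52 intervals was -0.09, with 24 above 0 and 28 below, against -0.22 over all 438 features. With TMM or median-of-ratios factors the median of the intervals was 0.09 or 0.04, so its sign depended on the scaling. The difference was under 1.5-fold for 25 intervals, 1.5-fold to 2-fold for 13, 2-fold to 4-fold for 11 and at least 4-fold for 3. The counting interval excluded a ratio of 1 for 40 of the 52, and for 292 of all 438 features. The log2 CPM of the 52 intervals in the 2 libraries had a Pearson correlation of 0.86, given as a description of these libraries. The spread was wider for rarer intervals. The SD of the log2 ratio was 1.49 for the 24 intervals with 50 to under 200 reads, 0.670 for the 17 with 200 to under 1000 and 0.603 for the 11 with 1000 or more. Of these 11, 0 were called when scaled to the piRNA total. They included chrU:9509419-9509999, outside the naming rule, with 430 and 756 reads (log2 ratio 0.92). With TMM or median-of-ratios factors it was called higher, at 1.09 or 1.05, as was chrUextra:1194140-1194271, and chrU:8496420-8497020 was called lower with the miRNA total.

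**Figure D4:**
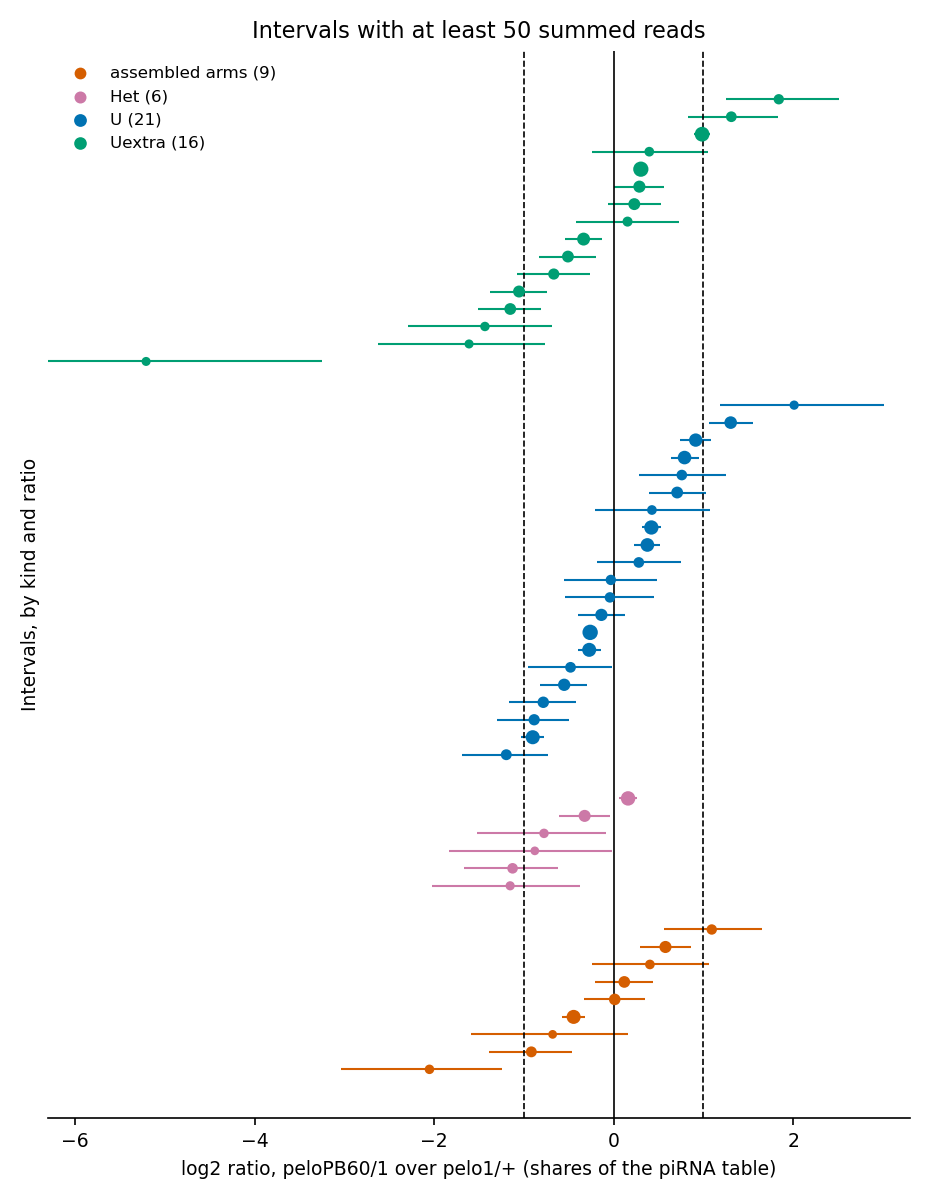
Log2 ratio of peloPB60/1 over pelo1/+ for the 52 intervals with at least 50 summed reads, as shares of the piRNA table, grouped by kind of genomic piece; bars are 95% counting intervals, larger points have more reads, and dashed lines mark 2-fold. The lowest Uextra interval, from 59 and 1 reads, has a bar that runs past the left edge to -11.11.

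The 5 intervals called higher lay on U, Uextra and 2R. chrU:3514294-3514504, of 211 bases, had the most reads, 196 in pelo1/+ and 452 in peloPB60/1, and a ratio of 2.48 (2.09 to 2.94). chrUextra:1359863-1360715 had 49 and 114 reads, a ratio of 2.50 (1.77 to 3.56). chrUextra:5273834-5274603 had 29 and 98 reads, a ratio of 3.63 (2.38 to 5.70). These 3 did not overlap or neighbour each other in the assembly. chrU:1613423-1615486 had the largest positive difference, with 14 and 54 reads and a ratio of 4.14 (2.27 to 8.07). On 2R, chr2R:327388-327660, near the centromere end of that arm, had 44 and 88 reads, a ratio of 2.15 (1.48 to 3.16). Its log2 ratio of 1.09 was 0.86, under 2-fold, with the miRNA total.

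Of the 9 intervals called lower, 5 lay on Uextra, 2 on 3LHet, 1 on U and 1 on 2R. chrUextra:11706902-11707647 had 59 reads in pelo1/+ and 1 in peloPB60/1, with a ratio of 0.0182 (0.000453 to 0.105). chr2R:2239786-2241478 had 64 and 14 reads, a ratio of 0.235 (0.122 to 0.423). These were the 2 intervals past 4-fold in this direction, both from under 100 summed reads. chrUextra:23864960-23865607 had 47 and 14 reads (ratio 0.320, 0.162 to 0.591), and chrUextra:25329736-25329891 had 56 and 19 (0.364, 0.204 to 0.622). The longest of all 52, chrU:2161707-2168429 with 6723 bases, had 131 and 53 reads (0.434, 0.309 to 0.602). chrUextra:1665023-1665711 had 239 and 100 reads (0.449, 0.352 to 0.569). The remaining Uextra interval, chrUextra:4386914-4387505, outside the naming rule and named to complete the 9, had 270 and 121 reads and a log2 ratio of -1.05. It was under 2-fold with TMM and median-of-ratios factors, at -0.87 and -0.92. With TMM scaling the log2 ratio of chrUextra:1665023-1665711 was -0.97, under 2-fold.

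The 2 intervals of 3LHet called lower lie close together. chr3LHet:2176795-2178275 had 106 reads in pelo1/+ and 45 in peloPB60/1, with a ratio of 0.456 (0.314 to 0.652). chr3LHet:2188306-2188844 had 46 and 19 reads, a ratio of 0.443 (0.245 to 0.772). Both were under 2-fold with TMM scaling, at log2 ratios of -0.95 and -0.97, and the first also with median-of-ratios factors, at -0.99. Of the 6 Het intervals with at least 50 reads, 5 had a log2 ratio below 0, down to -1.15. They included chr2RHet:949861-953798, with 239 and 178 reads (0.799, 0.655 to 0.975). Among the abundant Uextra intervals, chrUextra:7933567-7933721 was likewise below 1, with 479 and 354 reads (0.793, 0.689 to 0.912).

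The called intervals held few of the reads. The 9 lower ones had 1018 reads in pelo1/+ and 386 in peloPB60/1, and the 5 higher ones 332 and 806, together 3.12% and 2.53% of the reads of the 52. The other 38 had 21221 and 21223 reads. Median length was 689 bases for the lower, 770 for the higher and 461 for the uncalled intervals.

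**Figure D5:**
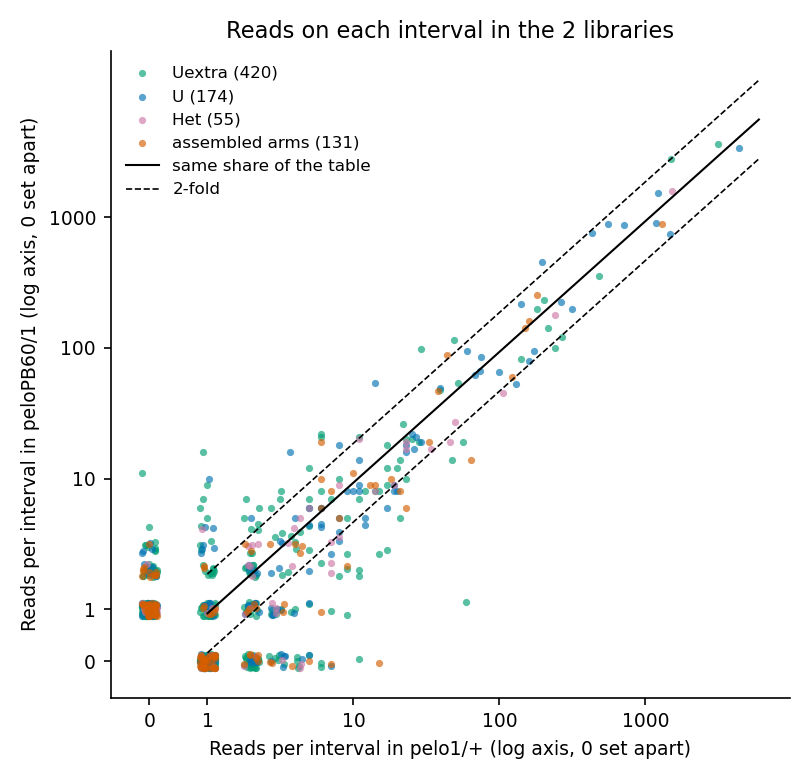
Reads per interval in pelo1/+ (x) and peloPB60/1 (y) on log axes for all 780 intervals, coloured by kind of genomic piece, with counts of 0 set apart and points under 5 reads spread slightly so that they can be seen. The solid line marks equal shares of the table and the dashed lines 2-fold; the abundant intervals run along the solid line and the scatter widens toward few reads.

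Of the 780 intervals 320 were found in both libraries, 243 in pelo1/+ alone and 217 in peloPB60/1 alone. Over all 1364 piRNA features 860 were found in both, and 540 of the 584 that are not intervals. The median was 2 summed reads for an interval and 111 for a feature that is not one. Intervals of 1 library had few reads. Of those in pelo1/+ alone 70.4% had 1 read, of those in peloPB60/1 alone 77.4%, and together they held 393 and 289 reads. A count of 0 allows up to 3 reads, which is 0.574 CPM in pelo1/+ and 0.616 CPM in peloPB60/1. All 52 intervals with at least 50 summed reads, and 87 of the 90 with 10 to under 50, were found in both.

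The largest counts on intervals of 1 library were still small. In pelo1/+ alone, chr3L:15953014-15953139 had 15 reads, and the counting interval of its ratio reached up to 0.299. chrUextra:27195115-27195479 had 11 reads, with a ratio of up to 0.428, and chr2R:1018265-1018861 had 7, with a ratio of up to 0.745. Another interval, chrU:4920920-4921020, tied with the last at 7 reads. In peloPB60/1 alone, chrUextra:2245485-2246138 had 11 reads, and the counting interval of its ratio started at 2.69. After it came chrUextra:23815629-23816277 with 4 reads and 12 intervals with 3, among them chr2L:22672177-22672257. For these last 2 named intervals the counting interval, which starts at 0.709 and 0.444, held a ratio of 1.

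Some intervals overlap or neighbour others, so they are not all separate places. There were 16 groups of overlapping intervals with 35 members, which held 151 reads in pelo1/+ and 183 in peloPB60/1. The group on U from 1613423 to 1615937 holds chrU:1613423-1615486, called higher above, and chrU:1614769-1615937, with 8 and 18 reads. With the remaining member, of 2 and 0 reads, they had 24 and 72 reads together, a ratio of 3.22 (2.004 to 5.35). Both larger members were thus on the same side. How reads in the shared bases were counted is not given in the sources used here. On 2R, chr2R:7111561-7111900 and chr2R:7111561-7111924 start at the same base, and each had its 1 read in a different library. Such a pair adds to the intervals of 1 library without being separate places.

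With gaps of at most 10000 bases, the 780 intervals formed 632 separate stretches, of which 109 held 2 or more intervals. In 8 of these at least 2 members had 10 or more summed reads, and in 5 of the 8 these members lay on the same side of a ratio of 1. Among the 5 is the overlapping group on U described above, whose members may share reads. Whether 5 of 8 is more than unrelated intervals would give was not tested. On 3LHet, 6 intervals between 2166483 and 2188844 had 164 reads in pelo1/+ and 72 in peloPB60/1, with a ratio of 0.471 (0.352 to 0.625). They include the 2 lower intervals above, while 1 other member with at least 10 reads was on the opposite side. On U, 3 intervals between 2754818 and 2773927 had 422 and 305 reads, a ratio of 0.776 (0.667 to 0.901). Its 2 larger members, chrU:2754818-2756130 and chrU:2771906-2773927, had 263 and 223, and 159 and 80 reads, with log2 ratios of -0.14 and -0.88.

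The median interval had 2 summed reads and the median feature that is not an interval had 111. The intervals were set beside the other features of up to 7772 summed reads, the sum of the leading interval. These 485 features still had a median of 81 summed reads, so they were not matched to the intervals in abundance. Of the 287 with at least 50 summed reads, 5 were called higher and 54 lower, with a median log2 ratio of -0.35. Those named with the tag of another Drosophila species had 4 higher and 48 lower of 227 and a median of -0.36. Those with other names had 1 higher and 6 lower of 60 and a median of -0.28. The intervals, with 5 higher and 9 lower of 52 and a median of -0.09, are set beside these as values, and a difference between the classes was not tested.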

How the data were processed

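The authors deposited raw read counts per feature, whole numbers with no normalization, in 1 miRNA and 1 piRNA table for each of 2 libraries, where every listed feature has 1 count or more. Per the submitters' processing notes, Bowtie 0.12.7 and the build BDGP5 belong to the processing, with no role given. Not given in the sources used here are the repeat reference, mismatches, strand and the handling of reads with several matches, so reads of repeated intervals may be shared among copies and with named transposons. Coordinates are printed as deposited, and lengths count both end bases. Whether numbering starts at 0 or 1 is not stated. Of the 13 sequence names, 6 occur in the BDGP6 annotation at hand, a different build that was not used for positions, and no sequence or gene was read for any interval.

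A feature absent from 1 table was given 0. Each count was scaled to its piRNA table's total. Intervals of 95% for ratios are exact conditional (Clopper-Pearson) and cover counting error only. With 1 library per genotype no p-value was computed. Ratios and calls were tested on simulated data with counting error only. Those data hold no variation between libraries, so they say nothing about it. The intervals, groupings and lists were chosen with earlier results of these data known. Named intervals are the 10 most abundant, the 3 most abundant of each kind of sequence, up to 8 called per direction, 3 per side found in 1 library, and the longest and shortest with at least 50 reads. The 10000-base gap and the limits of 20 Mb and 3 Mb were set after the data were seen. Alternatives covered scaling (edgeR 4.0.16 and DESeq2 1.42.0 for factors only), read filters, size rules, the added count, length classes, and leaving out abundant or overlapping intervals. Python 3.11.15 and scipy 1.17.1 were used.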

Additional observations from a re-analysis of the deposited data

How the results depend on the processing

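No paired analysis was possible because there is 1 library a genotype, which also leaves no library to omit. A value was taken as moved when it left its own counting interval, a count when it changed over 1.5-fold and a median when it changed by 0.1 or more. Over 105 recomputed summary values, 30 stayed and 75 moved. Of the 77 that are ratios or medians, 18 fell on the other side of 1 or 0, and for 5 of these the counting interval of the reported ratio had excluded 1. Against scaling by the piRNA total, log2 ratios shift by -0.07 with the total of both tables, -0.24 with the miRNA total, 0.18 with TMM, 0.13 with median-of-ratios, -0.07 with the total of intervals and 0.50 with upper quartiles, the last added after the data were seen. The pooled ratio of 1.05 was 1.004, 0.891, 1.19 and 1.15 with the first 4 and 1.48 with upper quartiles, and 1.097 without the most abundant interval and 0.967 without the 10 most abundant. The assembled arms moved to 0.7195 (miRNA total), 0.96 (TMM), 0.929 (median-of-ratios) and 0.987 (without the 10), and the Het pieces to 0.8396, 1.12, 1.084 and 0.696. U stood at 0.942 (both tables), 0.836 (miRNA), 1.115 (TMM), 1.08 (median-of-ratios), 0.9385 (intervals), 1.07 (without 1) and 1.14 (without 10), and Uextra at 1.182, 1.048, 1.399, 1.354, 1.177 and, without the 10, 0.855. By length, intervals under 500 bases stood at 1.237 (both tables), 1.098 (miRNA), 1.465 (TMM), 1.42 (median-of-ratios), 1.232 (intervals) and 1.002 (without 10). Those of 500 to under 1000 bases stood at 0.863, 0.766, 1.02, 0.989, 0.859 and 1.064 (0.9403 without 1). Those of 1000 to under 2000 bases stood at 0.619 (miRNA) and 0.8255 (TMM), and those of 2000 to under 5000 at 0.889, 1.186, 1.148 (median-of-ratios), and 0.895 (without 10). In 4 length classes of equal number the ratio was 1.44 (38 to 204 bases), 1.135 (204 to 646), 0.827 (646 to 821) and 0.869 (822 to 7658). The last class covers the 3 upper ones above and also intervals of 822 to under 1000 bases. Among these is the most abundant interval, of 887 bases with 7772 summed reads, so 0.869 is not a value for the 3 upper classes alone. The share of reads on intervals fell from 0.467% to 0.384% without the most abundant and 0.142% without the 10 in pelo1/+, and from 0.491% to 0.421% and 0.137% in peloPB60/1. The 5 higher and 9 lower calls became 13 and 23 with a filter of 1 read, 13 and 19 with 10, 1 and 2 with 200, 10 and 16 at 1.5-fold, and 1 and 2 at 4-fold. Higher calls were 11 with upper quartiles, and lower calls 15 with the miRNA total, 5 with TMM and 3 with upper quartiles. The median of -0.09 was -0.33 with the miRNA total, 0.090 with TMM, 0.043 with median-of-ratios, 0.41 with upper quartiles and -0.33 with a filter of 10. Scaling by a common factor moves all ratios alike, and leaving out intervals changes their sum by construction. Of 210 values of named intervals, 198 kept their call, 7 lost it and 5 gained it, with no change of sign among called ones. Below 50 summed reads, where 728 intervals lie, a difference of just 2-fold is often hard to tell from counting error. Of the 90 intervals with 10 to under 50 reads, 8 still met the rule for higher and 10 that for lower.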
